A study of Mus musculus with 16 samples.

Results

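The Elavl family was followed through a series that tested a microfluidic rotary mixer for reading the transcripts of single cells. All spots named Elavl1, Elavl2, Elavl3 or Elavl4 by the array files or the platform annotation were taken, which gave 5 probes of 4 genes among 24109 gene probes (18929 named genes). Elavl1 had 2 probes, with the identifiers AK010706 and NM_010485, and the other genes had 1 each. The family was chosen by its measured background-corrected intensity across the groups and cells, which was already known, so its levels are a description, with no p-value for any of its probes. Counts of its probes past a threshold are printed only beside the share of all tested probes, and nothing is read from them. A further probe, named 2600009P04Rik (AK011175), carries a RefSeq synonym of Elavl3. It was not taken by the naming rule, was found by its name alone after the files had been seen, and is reported beside the family with its tests.

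The series comprised 16 spotted mouse arrays, each hybridised with 1 sample labelled with the red dye Cy5. The 3 control arrays received 15 µg of total RNA from wild-type adult female B6.C3Sn forebrain, labelled without amplification by reverse transcription from random hexamers with Cy5-dUTP. The 3 microfluidic arrays and the 3 conventional arrays each started from 10 pg of adult female B6.C3Sn forebrain RNA, reverse-transcribed for 20 min in a 7 nL rotary mixer or in 10 µL in a tube. The 4 single-cell arrays each held 1 dissociated cell from the caudal ganglionic eminence (CGE) of OF1 mice at embryonic day 14 (E14), a transient forebrain zone that produces cortical interneurons, lysed and reverse-transcribed for 25 min in the mixer. The 10 pg and single-cell cDNAs all went through 40 cycles of template-switching PCR in tubes. The 3 explant arrays received 5 µg of unamplified OF1 E14 RNA, primed with random hexamers, given aminoallyl-dUTP and then coupled to Cy5; the labels call its source CGE explant in one field and telencephalon in another. No label names the animals behind the arrays, so p-values measure the spread between these hybridisations, which may be technical. Control and explant differed in strain, age, RNA amount and labelling chemistry at once, and these cannot be told apart.

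Elavl proteins, also called Hu proteins, are RNA-binding proteins with RNA recognition motifs that attach to AU-rich and U-rich stretches of messenger RNAs and change their stability, splicing and translation. Elavl1 (HuR) is made in nearly all cell types, whereas Elavl2 (HuB), Elavl3 (HuC) and Elavl4 (HuD) are made mainly in neurons, where they appear as cells leave division and begin to differentiate. Antibodies to the neuronal members are in common use as markers of newly formed neurons. In GRCm38.p6, as listed by RefSeq, Elavl1 lies at chr8:4284781-4325140, Elavl2 at chr4:91211533-91400108, Elavl3 at chr9:22015005-22052146 and Elavl4 at chr4:110203737-110351939. The sequences of the array probes, and hence the exons they read, were not used here.

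The amplified and the unamplified groups differ in how the RNA was primed, and the primers of the amplified groups are shown because they set that chemistry apart from the random priming of control and explant. In the template-switching primer the capitals mark the G run that pairs with bases added by the enzyme at the end of the first strand. In the oligo-dT primer, given without its last 2 degenerate bases, the capitals mark the T run that pairs with the poly(A) tail. The PCR primer is the stretch shared by both.
template-switching primer: aagcagtggtatcaacgcagagtacgcGGG
oligo-dT primer: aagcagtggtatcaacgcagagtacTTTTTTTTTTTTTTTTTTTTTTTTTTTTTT
PCR primer: aagcagtggtatcaacgcagagt

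Levels are given as net intensity, the median foreground minus the median local background of a spot in the red channel, in scanner units; a spot whose foreground reached the scanner's upper limit is called saturated. A spot was called detected when its net intensity exceeded 2 SD of its local background. The share of gene probes detected ran from 63.9% to 68.8% on the control arrays, 34.3% to 50.0% on the microfluidic arrays, 25.3% to 48.3% in the cells and 13.3% to 27.7% on the explant arrays. On conventional 2 and 3 it was 3.21% and 5.72%. Conventional 1 has no background SD in its file and was called against its blank spots, which gave 43.3%, or 4.40% when the SD of the other conventional arrays was filled in, so its calls are looser. Median net intensity over gene probes was 3514 to 4435 units in the control group and 178 to 218.5 units in the conventional group. The control arrays detected all 6 mature-neuron markers, the explant arrays 5 or 6 of 6 immature-neuron markers and 6 or 7 of 8 CGE markers, and the cells 3 to 6 and 2 to 6 of them. The control arrays also detected 4 or 5 of 6 immature-neuron and 6 of 8 CGE markers, and the explant arrays 2 to 4 of 6 mature-neuron markers, so the counts of immature-neuron and CGE markers overlapped between the tissues. Each scan session held arrays of 1 group, with cells 1 to 3 in one session and cell 4 in another, so scan session and group cannot be told apart; the conventional files give no session.

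Elavl3 was bright in the control, explant and microfluidic groups and read fewer units in the conventional group, whose arrays were dim throughout. Its net intensity was 36602, 34679 and 64254 on the control arrays, the last saturated. On the microfluidic arrays it was 64510, 64519 and 64720, saturated on all 3. On the conventional arrays it was 4007 and 863, detected on the first only, and a spot marked bad, with 693 units, was left out. The readings kept lay at percentiles 97.0 and 79.1 of gene probes, against 93.9 to 98.8 on the control arrays. The explant arrays read 19739, 14279 and 6145. The microfluidic values lay at the top of the scanner's range and the control values reached it on 1 array, so the groups overlapped after normalization.

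After normexp background correction and quantile normalization over the 16 arrays, Elavl3 averaged 15.30 ± 0.26 log2 units (SD, n = 3) on microfluidic, 14.44 ± 0.77 (n = 3) on control, 14.24 ± 0.77 (n = 3) on explant and 13.52 ± 2.05 (n = 2) on conventional arrays. Neighbouring groups in this order overlapped at every step. Microfluidic stood 0.86 ± 0.42 log2 units (SE) above control, as fitted, and between 0.57 and 1.30 when 1 array was left out. All 3 microfluidic spots and 1 control spot were saturated, so the size of that difference is not settled. Conventional minus control was -0.92 ± 0.95 as fitted, but 0.53 without conventional 3. Explant and control differed by -0.19 ± 0.50, with the sign turning to 0.24 without control 3 and 0.25 without explant 3.

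The probe named 2600009P04Rik was bright wherever Elavl3 was bright in unamplified and mixer samples. Its net intensity was 36453, 32225 and 29639 on control arrays and 64572, 39901 and 61670 on microfluidic arrays, the first of these saturated. It was 520, 565 and 864 on conventional arrays, detected on the first only, by that array's looser limit, and 26243, 16893 and 11641 on explant arrays. Its differences are given as fitted. By limma it fell by 1.92 ± 0.45 log2 units (SE) in conventional against control (adjusted p = 0.0165), with all 3 arrays below all controls. It entered that test through control alone, so the fall is a description. It was 2.71 ± 0.55 log2 units higher in microfluidic than in conventional samples by limma (adjusted p = 0.0112), and 0.90 ± 0.24 higher in explant than in control by limma (adjusted p = 0.0189), again without overlap. The comparison of microfluidic with conventional was entered through microfluidic alone and is likewise a description. Microfluidic against control gave 0.79 ± 0.31 by limma (adjusted p = 0.0579), which missed the threshold although the 3 arrays lay above all controls.

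These 3 calls were not stable to losing an array. The fall in conventional samples missed the threshold without any of the 3 control arrays by limma (adjusted p = 0.0748 to 0.0983). The difference between microfluidic and conventional missed it without microfluidic 1 (adjusted p = 0.0656 by limma) or 2 (0.0531). The rise in explant missed it without control 1 (adjusted p = 0.0700 by limma), control 3 (0.0537) or explant 1 (0.0557). Over the 15 arrays with both values, Pearson's r between 2600009P04Rik and Elavl3 was 0.468, a description over arrays that share groups.

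**Figure D1:**
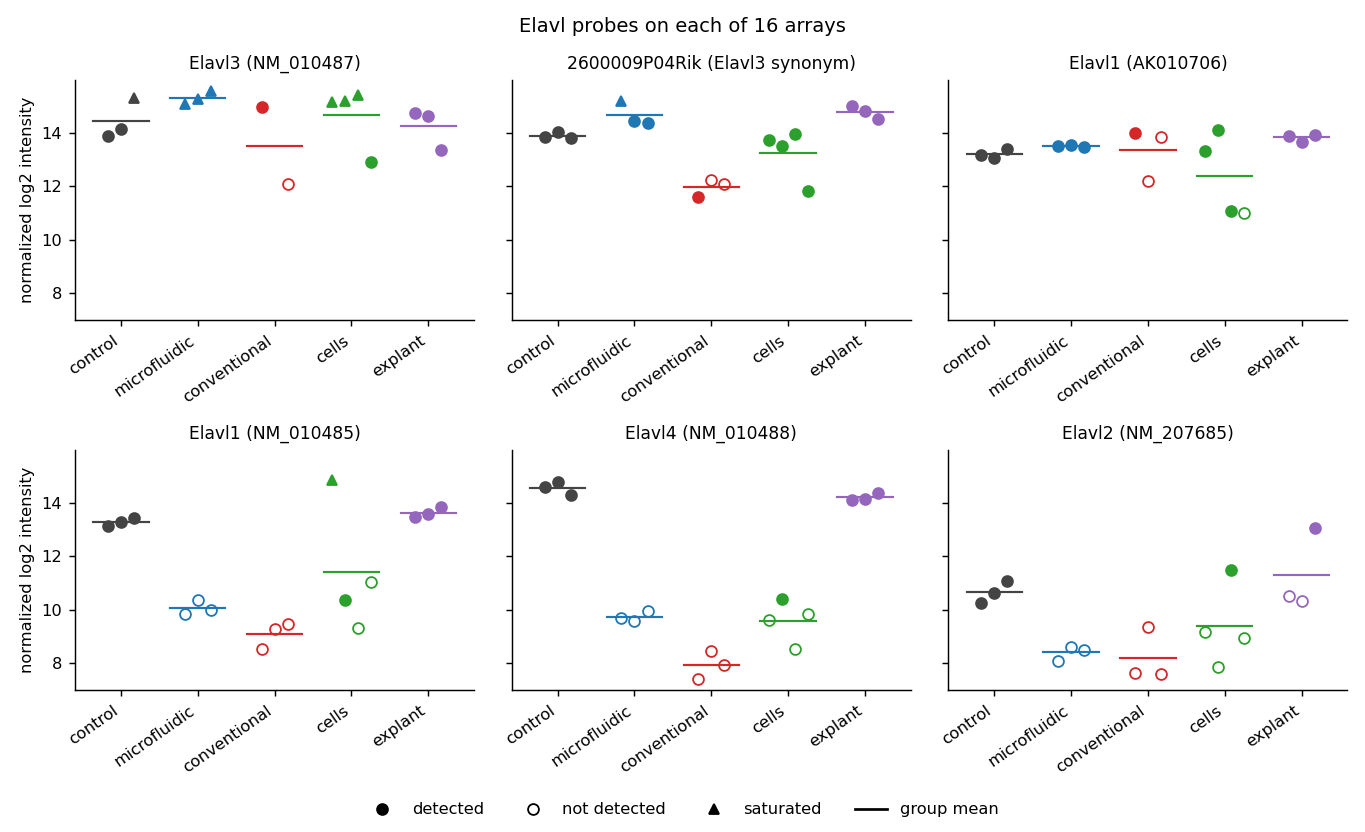
Normalized log2 intensity (y axis) of the 5 Elavl probes and of 2600009P04Rik on each array, by group (x axis); filled symbols were detected, open symbols were not, triangles were saturated and bars are group means. Elavl3 sits near the top on all microfluidic arrays, whereas Elavl4 falls from means of 14.55 in control and 14.22 in explant to 9.73 in microfluidic and 7.91 in conventional samples.

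Elavl4, a neuronal member best known for its part in neurite growth and neuronal maintenance, was bright in both unamplified groups and detected on no 10 pg array. It lay between the percentiles 95.2 and 97.2 of gene probes on the 6 unamplified arrays. Net intensity was 55639, 54099 and 40147 on control arrays and 12872, 9692 and 10596 on explant arrays. It was 740, 297 and 967 on microfluidic arrays, and -264, -85.5 and -144 on conventional arrays, where the spot was dimmer than its surroundings. Unamplified and 10 pg arrays did not overlap.

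On the normalized scale Elavl4 averaged 14.55 ± 0.24 (SD, n = 3) in control, 14.22 ± 0.14 (n = 3) in explant, 9.73 ± 0.18 (n = 3) in microfluidic and 7.91 ± 0.53 (n = 3) in conventional samples. Microfluidic minus control was -4.82 ± 0.27 log2 units (SE) as fitted, which is at least 19.8-fold lower when the undetected spots are put at the lowest detected intensity of their array. The corresponding bound for conventional samples was at least 2.63-fold lower, with a fitted difference of -6.64 ± 0.49. The bound is small there because the lowest detected intensity was itself high on those arrays. Explant and control overlapped, with a difference of -0.34 ± 0.24. By the looser limit of the 95th percentile of blank spots, Elavl4 exceeded background on all 3 microfluidic arrays and on no conventional array.

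Elavl2, made in neurons and also in germ cells, lay between the percentiles 44.8 and 63.3 of gene probes on the control arrays. Net intensity was 3497, 3859 and 5535 on control arrays, all detected. It was 103, 51 and 170 on microfluidic arrays and -216, 23.5 and -195 on conventional arrays, none detected. The explant arrays read 1156, 39.5 and 5289, with the last of these the only one detected.

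Elavl2 averaged 11.30 ± 1.53 log2 units (SD, n = 3) in explant, 10.65 ± 0.41 in control, 8.40 ± 0.28 in microfluidic and 8.19 ± 1.00 in conventional samples. Microfluidic minus control was -2.25 ± 0.31 (SE) as fitted, or at least 1.33-fold lower. For conventional samples the fitted difference was -2.45 ± 0.62, and no bound above 1 could be given. Explant against control gave 0.66 ± 0.69, which rested on explant 3 and became -0.23 without it. At these signals, an Elavl2 transcript in the 10 pg samples was not detectable, which does not show that it was absent.

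Elavl1, the ubiquitous member, depended on the probe. The probe AK010706 read 25103, 19026 and 23836 on control arrays and 26466, 15825 and 26302 on microfluidic arrays, detected on all. On conventional arrays it read 2097, 557 and 2806, detected on the first only and, with the background SD filled in there (an alternative added after seeing the data), on none. On explant arrays it read 11327, 7049 and 8301, all detected. Its normalized level was 13.82 ± 0.14 (SD, n = 3) in explant, 13.51 ± 0.05 in microfluidic, 13.35 ± 0.99 in conventional and 13.21 ± 0.18 in control samples. Conventional overlapped with both microfluidic and control.

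The probe NM_010485 read 24725, 21547 and 23955 on control arrays and 8877, 6621 and 7931 on explant arrays. It read 846, 738 and 1031 on microfluidic arrays and -83, 14 and 61 on conventional arrays, none of them detected. Its normalized level was 13.63 ± 0.19 (SD, n = 3) in explant, 13.28 ± 0.14 in control, 10.05 ± 0.27 in microfluidic and 9.09 ± 0.50 in conventional samples. No array of a 10 pg group reached the unamplified groups.

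The probes of Elavl1 gave different differences for the mixer. Microfluidic minus control was 0.30 ± 0.25 log2 units (SE) by AK010706 and -3.23 ± 0.26 by NM_010485, or at least 8.26-fold lower. With AK010706 conventional stood 0.14 ± 0.59 above control, a sign that turned under median centring (-0.48), without conventional 1 (-0.18) and without conventional 3 (-0.11). With NM_010485 conventional minus control was -4.19 ± 0.48 as fitted, or at least 1.09-fold lower. Between the unamplified groups both probes were higher in explant, by 0.61 ± 0.23 and 0.34 ± 0.23, without overlap, but NM_010485 turned to -0.15 under median centring and to -0.02 with the authors' deposited signal values. Pearson's r between both probes over 16 arrays was 0.212, whereas NM_010485 and Elavl4 gave 0.815. These values describe arrays that share groups and are no test.

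**Figure D2:**
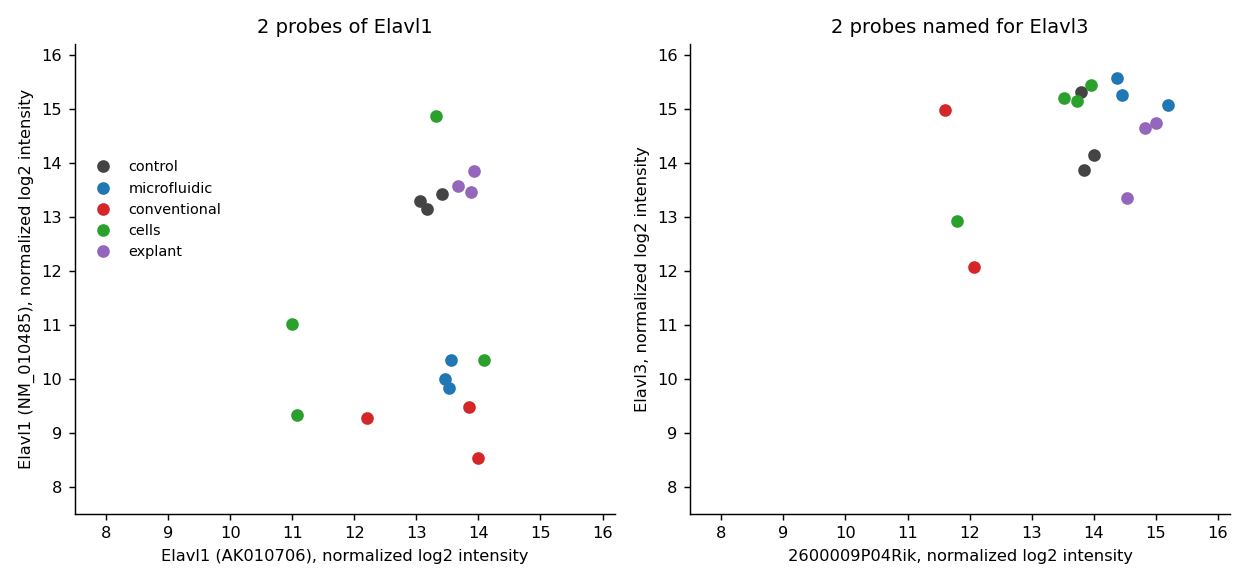
Each point is an array, coloured by group; the left panel plots Elavl1 NM_010485 (y) against Elavl1 AK010706 (x) and the right panel Elavl3 (y) against 2600009P04Rik (x), all in normalized log2 units. On the left the microfluidic and conventional arrays lie low on the y axis and high on the x axis; the right panel has 15 points because the Elavl3 spot of conventional 2 was marked bad.

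Across the comparisons, 3 of 5 Elavl probes passed the limma threshold (adjusted p under 0.05) in microfluidic against control, all lower, where 59.1% of the 15460 tested probes passed, 24.0% higher and 35.1% lower. The same 3 probes (Elavl4, Elavl2 and Elavl1 NM_010485) passed in conventional against control, again all lower, against 29.0% of 13796 tested probes, 6.6% higher and 22.4% lower. In microfluidic against conventional 2 of 5 probes could be tested, and neither passed, against 26.7% of 6950. They were Elavl3 (1.78 ± 0.91 log2 units as fitted, saturated in the mixer) and Elavl1 AK010706 (0.16 ± 0.64). With its undetected conventional spot at the lowest detected intensity of the array, Elavl3 was 1.86-fold higher, which is no bound. Of all tested probes 1513 were higher (21.8%) and 343 lower (4.94%), or 3236 and 223 with median centring. The other 3 Elavl probes were detected on no array of either group. In explant against control 0 of 5 passed, against 42.0% of 13829, 15.0% higher and 27.0% lower. Since the members were picked with these values known, nothing is read from the counts.

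The groups did not overlap for 4 of 5 Elavl probes in microfluidic against control, 1 higher and 3 lower, where 68.6% of tested probes had no overlap. This held for 3 of 5 in conventional against control (49.4%) and 2 of 5 in explant against control (57.4%), both higher. In microfluidic against conventional, where 48.0% of tested probes had no overlap, this was so for Elavl3, Elavl4 and Elavl1 NM_010485, all higher, of which only Elavl3 was tested. The comparisons with control share the same 3 control arrays. With each array centred on its median in place of quantile normalization, all 5 probes passed in microfluidic against control, with Elavl3 at 1.94 and Elavl1 AK010706 at 1.35 log2 units. Of all 15460 tested probes 9296 then passed, 4478 higher and 4818 lower. In microfluidic against conventional both tested probes then passed, at 3.13 and 1.83 log2 units, where 3459 of all 6950 passed, 3236 higher. The directions of those 4 Elavl differences were as in the main normalization.

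**Figure D3:**
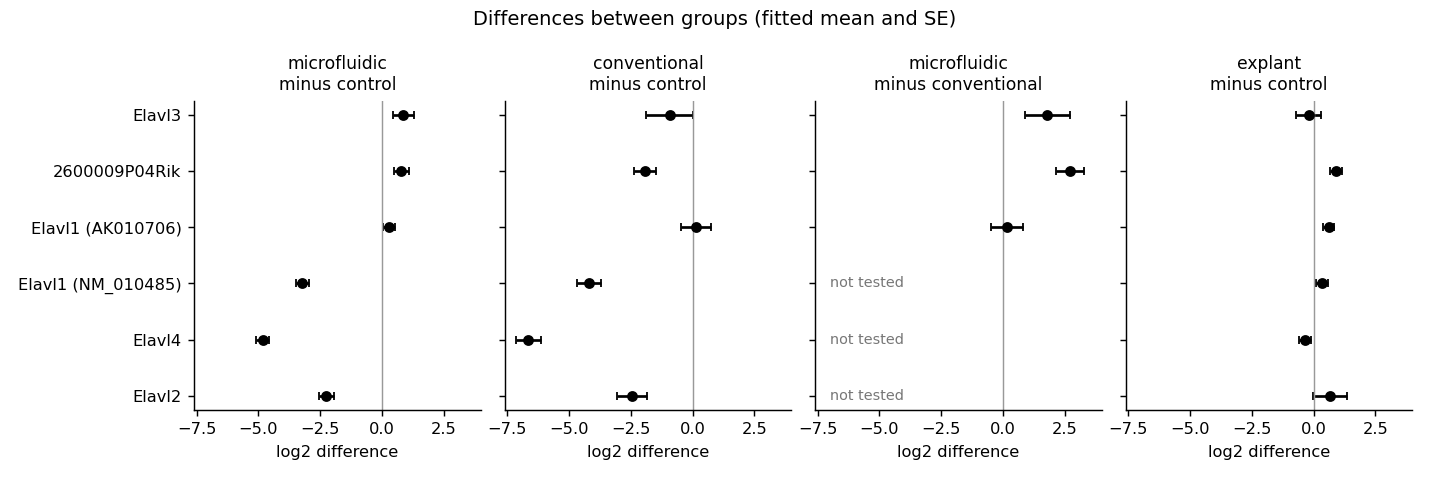
Fitted log2 difference (x axis, with SE bars) of each Elavl probe and 2600009P04Rik in the 4 comparisons, first group minus second. Elavl4, Elavl2 and Elavl1 NM_010485 lie left of 0 in both 10 pg groups against control, from -2.25 to -6.64, and were not tested where neither group detected them.

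In the 4 CGE cells Elavl3 was bright in 3 and Elavl4 was detected in 1. Elavl3 read 64194, 64421 and 64299 units in cells 1, 2 and 3, all saturated, and 5265 in cell 4. Elavl4 read 723, 1697, 22 and 458, detected in cell 2 only. That spot was marked as not found in its array file and lay at percentile 48.3 of gene probes. Their normalized levels in the cells were 12.92 to 15.43 for Elavl3 and 8.51 to 10.40 for Elavl4.

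Against the explant mean, Elavl3 was 1.86-fold, 1.94-fold and 2.28-fold higher as normalized in the saturated cells 1 to 3. Saturated spots of an array are ordered by local background alone, so these folds are not bounds. In cell 4 Elavl3 differed by -1.32 log2 units from the explant mean, where the explant SD was 0.77. Elavl4 was below the explant in every cell. In cell 2, where it was detected at a spot marked not found, it differed by -3.82 log2 units, against an explant SD of 0.14. In cells 1, 3 and 4, where it was not detected, it was at least 14.2-fold, 10.45-fold and 7.66-fold lower, by the bound used above. On all 3 microfluidic arrays of 10 pg adult RNA Elavl3 was saturated and Elavl4 undetected. Against their mean, Elavl3 differed by -2.38 log2 units as measured in cell 4, and Elavl4 was at least 1.12-fold higher in cell 2. No size is given for the other cells, which were saturated for Elavl3 or undetected for Elavl4 as well. No label ties a cell to an animal, so the 4 cells were not tested against any group.

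Elavl1 differed between cells and between probes. AK010706 read 25301, 57647, 1701 and 1151 units in cells 1 to 4, not detected in the last. NM_010485 read 63941, saturated, in cell 1 and 1625, 225 and 1168 in the others, detected in cells 1 and 2. Cell 1 was the only amplified sample in which NM_010485 was bright. As normalized, the probe was there 2.35-fold above the explant mean. It was 24.6-fold above the microfluidic mean, where it was not detected and was put at the lowest detected intensity. Its spot in cell 1 was saturated, so neither fold is a bound.

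Elavl2 read 476, 93.5, 2442 and 152 units, detected in cell 3 only. It was there at least 2.38-fold above the microfluidic mean, where no array detected it, and 0.19 log2 units as measured above the explant mean, where 1 of 3 arrays did. The probe 2600009P04Rik read 36087, 35719, 24620 and 2066 and was detected in all 4 cells. Cell 4 gave the lowest reading of this probe and of Elavl3 and detected 1 of the 5 Elavl probes, against 3, 4 and 3 in cells 1 to 3. It also had the lowest share of detected probes of the cells (25.3%), and its scan session differed; the part of either in its Elavl values was not tested.

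Markers fixed for this description were read in the same cells. Of 6 immature-neuron markers, cells 1, 3 and 4 detected 3, lacking Stmn2, Igfbpl1 and Nrep, and cell 2 detected 6. Of 6 neural progenitor markers the cells detected 0 or 1, with Sox2, Pax6, Vim, Hes1 and Hes5 undetected in all. Of the erythroid markers, 1 to 3 of 4 were detected in the cells. Mature-neuron markers gave 1 to 3 of 6 and microglia markers 1 of 5 in every cell. Oligodendrocyte markers gave 1 or 2 of 5, astrocyte markers 0 to 2 of 5 and endothelial markers 0 to 3 of 5. The microfluidic arrays of adult RNA detected 3 to 5 of 6 immature-neuron, 2 or 3 of 6 mature-neuron and 2 to 7 of 8 CGE markers. These counts overlapped with those of the cells. Progenitor markers gave 2 to 5 of 6 on those arrays. The counts alone therefore do not show what the cells were. The part of the markers in the Elavl values was not tested.

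**Figure D4:**
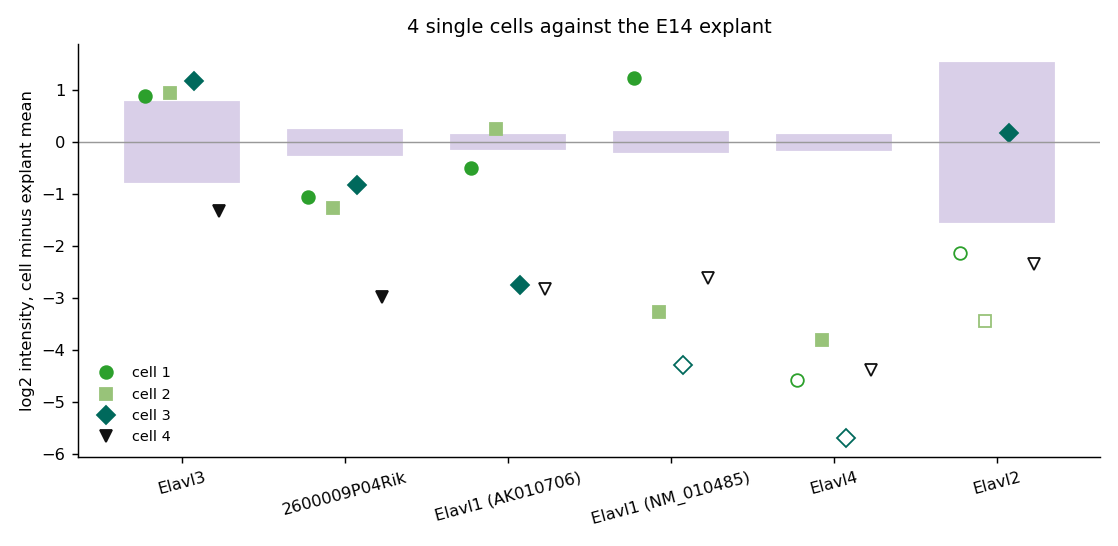
Normalized log2 intensity of each of the 4 cells minus the explant mean (y axis) for every probe (x axis); shaded boxes span 1 SD of the 3 explant arrays on each side of their mean, and open symbols were not detected, so that their distance from the explant is as measured. Elavl4 is below the explant in all 4 cells and detected in cell 2 only (-3.82, a spot marked not found), and Elavl3 is above it in cells 1 to 3, where it was saturated.

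The genes whose pattern over the arrays was most like each Elavl gene were ranked by Pearson's r of log2 intensity among 6823 genes, using the brightest probe of each. For Elavl4 they were Rhov (0.972, n = 15), Atp5h (0.971, n = 14) and Dynlrb1 (0.969, n = 16). For Elavl3 they were Usp9x (0.881, n = 14), Foxn2 (0.876, n = 14) and Tmem163 (0.863, n = 15). For Elavl2 they were Zranb1 (0.889, n = 16), Ndufa4 (0.874, n = 16) and Pigl (0.871, n = 15). For Elavl1, read by AK010706, they included Smo (0.837) and Ist1 (0.835), each with n = 16. The arrays share groups and amplification, so these values only describe likeness.

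Other neuronal RNA-binding proteins numbered 27 on the array (30 listed), of which 21 were tested in microfluidic against control. By limma 6 were higher and 7 lower, where 24.0% of all tested probes were higher and 35.1% lower, with a median of -0.54 log2 units against -0.42 over all tested probes. For this and the following lists nothing particular to a list is read from its counts. Differences with ± are as fitted, also for genes that were undetected or saturated on some arrays. Here and in the following lists, a gene detected on every array of 1 group only entered its test through that group alone. Its difference and p-value are then a description, as for all genes given an "at least" fold. The splicing and stability regulator Celf2 was 12.5-fold higher as normalized by its brightest probe (adjusted p = 0.000184 by limma), saturated in the mixer, while its other probe gave -4.0. Igf2bp1, which carries and stabilises mRNAs in embryonic cells, was at least 4.01-fold higher (adjusted p = 0.00121 by limma), with -0.27 at its other probe. Fxr1, a relative of the fragile X protein, was 2.10 ± 0.34 higher (adjusted p = 0.00153 by limma), with -0.36 at its other probe. The neural stem cell regulator Msi1 was at least 7.77-fold lower, the fragile X relative Fxr2 at least 5.01-fold lower, and the polyadenylation-element binder Cpeb2 fell by 2.75 ± 0.30, with limma adjusted p-values of 0.000131, 0.000354 and 0.000278.

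Of the factors of AU-rich elements and of general mRNA stability, 3 were higher and 10 lower of 17 tested in the same comparison, where 24.0% of all probes were higher and 35.1% lower, with a median of -1.40 log2 units against -0.42. Zfp36 and Zfp36l1, which bind AU-rich elements and speed mRNA decay, were 2.84 ± 0.40 and 2.88 ± 0.31 higher (adjusted p = 0.000768 and 0.000257 by limma). Khsrp, another decay factor, was 3.05-fold higher as normalized (adjusted p = 0.00289 by limma) and saturated in the mixer. The poly(C)-binding protein Pcbp2, saturated in control, was 21.6-fold lower as normalized (adjusted p = 7.76e-05 by limma). The poly(A)-binding protein Pabpc1 fell by 3.17 ± 0.32 (adjusted p = 0.000203 by limma). Hnrnpa1, a splicing factor, fell by 2.15 ± 0.31 as fitted (adjusted p = 0.000949 by limma) at its brightest probe, which was saturated on 2 of 3 control arrays, and gave 4.18 at its other probe.

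Messages that have been reported to be bound by Elavl proteins had 13 lower and 3 higher of 25 tested. With median centring 6 were higher, where 4478 of all 15460 tested probes were. In the main normalization the list's median was -1.63 log2 units. The shares over all tested probes there were again 24.0% higher and 35.1% lower, with a median of -0.42. Higher were the cell cycle gene Ccnd1 (3.59 ± 0.50, limma adjusted p = 0.000746), the neurotrophin gene Bdnf (1.58 ± 0.25, 0.00144) and the caspase inhibitor Xiap (1.49 ± 0.31, 0.00477). Lower were Mapt, which encodes the microtubule protein tau, by at least 8.15-fold (limma adjusted p = 0.000121), and the kinase gene Camk2a, saturated in control, by 32.1-fold as normalized (8.32e-05). Camk2a was measured on 2 of the 3 microfluidic arrays, and its other probe gave -0.45. Msi1 and Nova1 belong to this list and to the neuronal RNA-binding list.

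In conventional against control the neuronal RNA-binding list had 1 higher and 5 lower of 19, the stability factors 0 and 5 of 16 and the reported targets 1 and 11 of 24, where 6.6% of all tested probes were higher and 22.4% lower. Their medians were -1.71, -1.41 and -1.72 log2 units against -0.76 over all tested probes. Celf2 was again higher by its brightest probe (1.88 ± 0.58, limma adjusted p = 0.0438) and -4.48 at its other probe. Celf4, a neuronal member of the Celf family, was at least 2.81-fold lower (limma adjusted p = 0.00176). Pcbp2, saturated in control and detected on no conventional array, differed by -5.76 ± 0.58 as fitted (limma adjusted p = 0.000918). With its undetected spots at the lowest detected intensity of their array, Pcbp2 was 4.88-fold lower, which is no bound. Msi1, Mapt and Pabpc1 had bounds of at least 1.03-fold, 1.08-fold and 1.30-fold lower (limma adjusted p = 0.00266, 0.00354 and 0.00121). Tia1, a stress granule protein, differed by -3.09 ± 0.63 as fitted (limma adjusted p = 0.00932). It was detected on no conventional array, and no bound above 1 could be given. Cpeb2, detected on 1 of 3 conventional arrays, fell by 2.47 ± 0.67 as fitted (limma adjusted p = 0.0285). Xiap was 2.59 ± 0.53 higher (limma adjusted p = 0.0126) on the 2 conventional arrays that measured it, with -2.07 at its other probe.

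In microfluidic against conventional all list members past the threshold were higher in the mixer: 3 of 12 neuronal RNA-binding genes, 1 of 9 stability factors and 2 of 14 reported targets, where 21.8% of all tested probes were higher and 4.94% lower. The list medians were 1.09, 1.32 and 0.81 log2 units against 1.00 over all tested probes. Qk, a regulator of myelin mRNAs, was 3.68 ± 0.82 higher as fitted (limma adjusted p = 0.0148), saturated on 2 of 3 microfluidic arrays and detected on 1 of 3 conventional arrays. Celf4 was 2.33 ± 0.70 higher as fitted (limma adjusted p = 0.0384) and detected on 0 of 3 conventional arrays. The splicing regulator Rbfox2, saturated in the mixer, was 2.76 ± 0.75 higher as fitted (limma adjusted p = 0.0276). With its undetected conventional spots at the lowest detected intensity of their array, Rbfox2 was 2.39-fold higher, which is no bound. Zfp36 was at least 3.12-fold higher over the 2 conventional arrays that measured it (limma adjusted p = 0.00998) and the chromatin organiser Satb1 at least 1.47-fold higher (0.00696). Ccnd1 was 3.57 ± 0.78 higher (limma adjusted p = 0.0138).

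In explant against control both RNAs were unamplified. Of 16 stability factors 10 were higher and 0 lower by limma, where 15.0% of all tested probes were higher and 27.0% lower. The list's median was 1.15 log2 units against -0.31 over all tested probes. With median centring 6 stability factors were higher, where 1602 of all 13829 tested probes were higher and 4449 lower. In tissue RNA, fewer cells of a type and less RNA per cell cannot be told apart. Hnrnpab, an AU-rich element binder, was 4.0 ± 0.23 higher (limma adjusted p = 4.92e-05), Ybx1, a cold-shock protein that packages mRNA and was saturated on 1 explant array, 3.47 ± 0.34 (0.000316), and Khdrbs1, also called Sam68, 3.43 ± 0.22 (7.02e-05). The neuronal RNA-binding list had 5 higher and 4 lower of 19, beside the same 15.0% and 27.0%, and a median of 0.23. With median centring it had 3 higher and 8 lower, beside the 1602 and 4449 of all tested probes.

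Ptbp2, the neuronal splicing repressor of developing brain, was 2.91 ± 0.30 higher (limma adjusted p = 0.000381), Rbfox2 1.41 ± 0.31 (0.00911) and Fxr1 1.51 ± 0.26 (0.00370). The Fxr1 probe was detected on 1 of 3 explant arrays, and the other probe of Fxr1 gave -0.54. Rbfox1, a splicing regulator of mature neurons, fell by 2.29 ± 0.57 as fitted (limma adjusted p = 0.0157), with 1 control array saturated and -3.52 at its other probe. Cpeb1 differed by -1.93 ± 0.40 as fitted (limma adjusted p = 0.0102), and no bound above 1 could be given. Cpeb2 was at least 2.95-fold lower (limma adjusted p = 0.00493). Both had kept spots on 2 explant arrays and were detected on no explant array. Of the reported targets 7 were higher and 8 lower of 25, beside 15.0% and 27.0% of all tested probes, with a median of -0.03. Ccnb1, a mitotic cyclin, was at least 18.6-fold higher (limma adjusted p = 2.02e-05), Ptma, saturated on 1 explant array, 3.34 ± 0.22 (7.16e-05) and Ccna2 1.67 ± 0.25 (0.00205). The mature-neuron gene Camk2a, saturated in control, was 16.7-fold lower as normalized (limma adjusted p = 0.000144), with -0.08 at its other probe. Kcna1, also of mature neurons, was at least 4.91-fold lower (limma adjusted p = 7.04e-05).

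**Figure D5:**
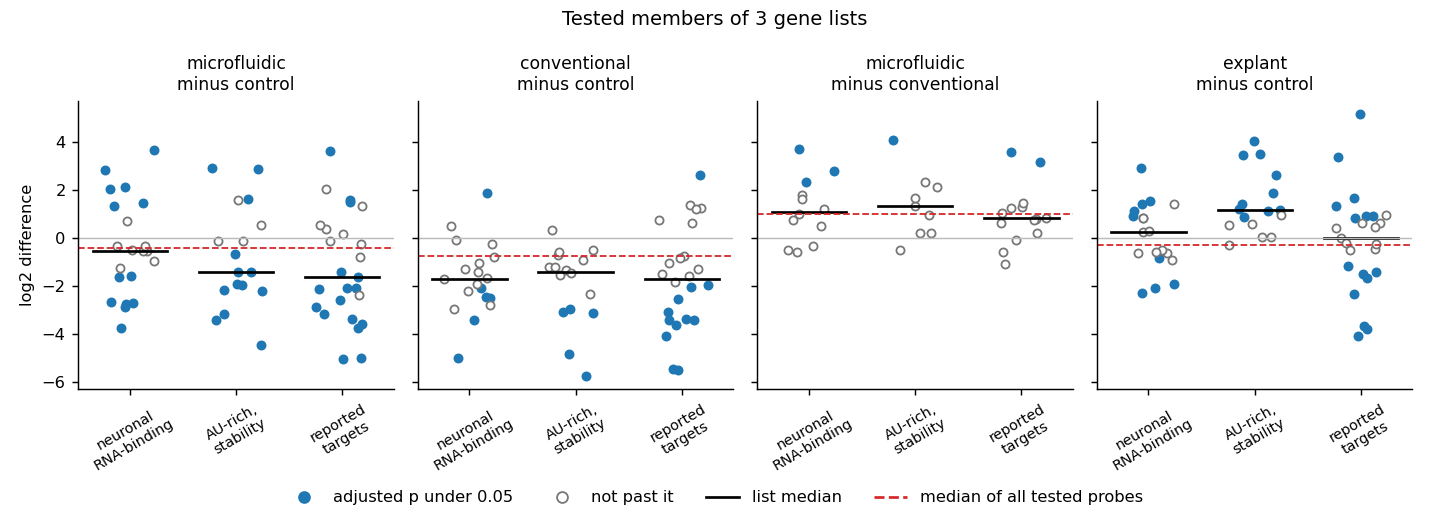
Log2 difference (y axis) of each tested member of the 3 gene lists (x axis) in the 4 comparisons, filled where limma's adjusted p was under 0.05; black bars are list medians and dashed red lines the median of all tested probes. The stability factors sit above the red line in explant against control (median 1.15) and below it in microfluidic against control (median -1.40).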

How the data were processed

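Expression was measured on 16 one-colour arrays. Per the file headers, the deposited intensity values are unprocessed Mapix readings of foreground and local background for 25344 spots in the red channel; the 3 conventional files have no header. The deposited percent of saturated pixels per spot, a Mapix output per the file headers, was not used to call saturation. The series table's deposited signal values, made by the authors in a way not given in the sources used here, were tried once as an alternative. Probes were named through the files, the platform annotation and RefSeq.

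Blank and buffer spots were left out, as were spots marked bad unless saturated. Intensities were corrected by normexp (offset 50), taken to log2, quantile-normalized across the 16 arrays with limma 3.58.1 (R 4.3.3) and averaged by probe. For 4 pairs of groups, limma (two-sided, own spread per pair) tested probes that every array of 1 or both groups detected, with Benjamini-Hochberg adjusted p under 0.05 over all tested probes. Folds given as "at least" put undetected spots at the lowest detected intensity of their array and saturated spots at their value. Saturated spots of an array are ordered by local background alone. Folds resting on a group or cell that was saturated throughout are therefore given "as normalized" and are not bounds. They too put undetected spots at the lowest detected intensity of their array. Per list and comparison, at most 3 members with the smallest p in each direction and no overlap are named, through their brightest probe. A few genes that this rule or the likeness ranking would name are not reported here. Members, lists and tests were chosen with earlier results of these data known. The test was tried on simulated data. Replicate numbers do not pair samples: deviations of same-numbered arrays correlated between -0.18 and 0.09. The number of arrays limits the precision.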

Additional observations from a re-analysis of the deposited data

Results flagged for a closer look

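Elavl3 was dimmer in cell 4 than in the other cells. Its normalized level was 12.92 log2 units, against 15.14, 15.20 and 15.43 in cells 1 to 3, and the gap to the nearest cell made up 0.884 of the range of the 4 cells, above Dixon's critical value for 4 samples. The value is among those by which the family was chosen and is given as a description. The other 3 cells were saturated for this probe, so the scanner's limit held them together and the ratio carries no weight as a test. The same check on the other 4 Elavl probes and on 2600009P04Rik did not mark a cell; chance marks about 1 in 20 such groups.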

How the results depend on the processing

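The 3 Elavl probes lower in both 10 pg groups against control kept their direction under every alternative run. They were detected on no 10 pg array and passed the detection filter through control alone, so their direction carries no weight as support. In microfluidic against control, 5 probes passed under median centring, where 9296 of all 15460 tested probes did. Among probes detected in both groups 0 passed, since those 3 are then not tested, beside 2730 of 5079. Leaving out 1 array gave 3 to 4. Conventional against control gave 2 to 3 when 1 array was left out. In microfluidic against conventional 2 passed under median centring, and 0 to 1 when 1 array was left out, with Elavl3 passing at 3.24 without conventional 1. In explant against control 1 probe passed without background correction, under median centring, with the authors' signal values and among probes detected in both groups, and 0 when any array was left out. Of all tested probes 5486 of 13829, 6051 of 13829, 6093 of 13808 and 1428 of 2673 passed under those settings in turn. With the replicate number as a block the counts of Elavl probes were 3, 3, 0 and 0, and the block changed no other call; the arrays share only a number.

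Reversed differences were Elavl3 in conventional against control without conventional 3 (0.53, range -2.37 to 0.53 when 1 array was left out); Elavl1 AK010706 there under median centring (-0.48), without conventional 1 (-0.18) and without conventional 3 (-0.11; range -0.18 to 0.71), and in microfluidic against conventional without conventional 2 (-0.41; range -0.41 to 0.48). In explant against control they were Elavl3 without control 3 (0.24) and without explant 3 (0.25; range -0.48 to 0.25), Elavl1 NM_010485 under median centring (-0.15) and with the authors' signal values (-0.02), and Elavl2 without explant 3 (-0.23; range -0.23 to 1.15). The causes were not tested. Elavl2 in conventional against control missed the threshold without background correction and without any 1 of the control arrays.

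At the 95th percentile of blank spots Elavl4 was detected on 12 arrays and Elavl2 on 8. The mean of the cells minus the explant for Elavl4 moved to -3.56 without background correction and -3.09 with the deposited signal values. List counts under median centring were, for microfluidic against control, 6 reported targets higher; for conventional against control, 0 neuronal RNA-binding genes higher and 10 lower, and 8 stability factors lower; for microfluidic against conventional, 7, 4 and 5 members higher in the 3 lists; for explant against control, 3 neuronal RNA-binding genes higher and 8 lower, and 6 stability factors higher. Under median centring 4478 of all 15460 tested probes were higher in microfluidic against control, and 3236 of 6950 in microfluidic against conventional. In conventional against control 817 of 13796 were higher and 4119 lower, and in explant against control 1602 of 13829 and 4449. With the deposited signal values 2 reported targets were higher in conventional against control, where 982 of 13796 probes were. So were 2 stability factors in microfluidic against conventional, where 1645 of 6950 probes were.

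Median centring moved the median of all tested probes from -0.42 to -0.17 in microfluidic against control, from 1.00 to 1.59 in microfluidic against conventional and from -0.31 to -0.43 in explant against control. Counts of all probes past the threshold that moved by over 1.5 times were, for conventional against control (4000), 6743 without the filter, 185 among probes detected in both groups and 1717 to 1889 without 1 control array. For microfluidic against conventional (1856) they were 3459 under median centring, 88 in both groups, 2968 with a common spread and 502 to 662 without 1 microfluidic array. For microfluidic against control (9135) the count was 2730 in both groups, and for explant against control (5811) it was 1428 in both groups and 1663 with a common spread. Saturation limits what Elavl3 can show above control, and background limits Elavl2 and Elavl4 below it.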
